A study of Mus musculus with 41 samples.

Results

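SOX9 binding late after induction was compared between week 6 (W6) and week 12 (W12) of doxycycline (DOX). The members are all 30324 SOX9 peaks of these time points, 20579 at W6 and 9745 at W12, out of 328085 peaks in the 18 lists of the series. They were measured by CUT&RUN (CNR), in which a nuclease tethered to an antibody releases the DNA around the bound protein for sequencing. A peak was called shared where it overlapped a peak of the other list by at least 1 bp, and W6-only or W12-only where it did not.

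Both groups were male CD1 mice of the genotype K14rtTA; TRE-myc-Sox9. The K14 promoter makes the DOX-dependent activator rtTA in the basal epidermis, where DOX then switches on a MYC-tagged *Sox9* transgene, so every mouse carried the transgene and all received DOX. At W6 the cells came from back skin of mice aged P63, that is postnatal day 63, after 6 weeks of DOX. At W12 they came from newborn back skin grafted onto immunocompromised *Nude* female hosts and given 12 weeks of DOX after the grafts had healed, so grafting, host and age changed together with the weeks of DOX and cannot be told apart. Epidermal stem cells (EpdSCs) were sorted in both groups for high CD49f (alpha6 integrin) and high Ly6A, without CD34 and without the markers CD31, CD45, CD117 and CD140a of other cell types. Each group had 2 samples, whose reads were pooled into 1 peak list, so no spread between animals can be given and no test between the time points was made. The antibody was against SOX9 itself and reads the mouse's own SOX9 as well as the transgenic protein. D0 denotes skin before DOX.

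SOX9 is an HMG-box transcription factor that binds a short ACAATGG-like word, read as CCATTGT on the other strand. It specifies hair follicle stem cells (HFSCs) and the outer root sheath, is silent in adult EpdSCs, and is expressed in basal cell carcinoma (BCC), a skin tumour driven by hedgehog signalling. It is described as a pioneer factor because it can bind its word on nucleosomes. AP1 factors, dimers of FOS and JUN proteins, bind TGACTCA or TGAGTCA and occupy many enhancers in keratinocytes. MLL3 and MLL4 methylate histones at enhancers.

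The sequences under the summits differed between shared and single-list peaks, and those of high peaks of each class are printed here from the GRCm38.p6 (mm10) reference, each as 100 bp centred on the maximum of the peak and on the plus strand. Capitals mark a SOX word on either strand, that is CCATTGT or the variant CCTTTGT, or the same starting with G, which reads GCATTGT or in the variant GCTTTGT. Capitals also mark an AP1 word, TGACTCA or with the other central base TGAGTCA. The first 4 windows were from shared peaks, those of *Tle1* and *Reep3* centred on the W12 maximum and those of *Adgrl2* and *Arhgap18* on the W6 maximum. They were chosen among high shared peaks whose window holds a word, so they do not show how frequent the words are. The window around the W6 maximum of the *Tle1* site held neither word. The peak 33.1 kb from *Tle1*, which encodes a corepressor, was the highest of both lists by total signal outside the D0, no-DOX and dHMG-SOX9 lists, which stand for skin or cells without DNA-binding induced SOX9, with a maximum of 15070 RPKM at W6 and 10295 RPKM at W12. RPKM is the fragment density per kb, divided by the library total. The *Reep3* intron followed in the W12 list, and the *Adgrl2* and *Arhgap18* peaks ranked 15 and 20 at W6 by total signal. The windows lay at chr4:72233956-72234055, chr10:67061468-67061567, chr3:148429400-148429499 and chr10:26879247-26879346.
Tle1: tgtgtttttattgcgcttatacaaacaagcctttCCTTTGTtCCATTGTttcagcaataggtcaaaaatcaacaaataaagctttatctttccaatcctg
Reep3: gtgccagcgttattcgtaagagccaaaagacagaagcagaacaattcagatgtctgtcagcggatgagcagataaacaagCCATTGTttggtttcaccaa
Adgrl2: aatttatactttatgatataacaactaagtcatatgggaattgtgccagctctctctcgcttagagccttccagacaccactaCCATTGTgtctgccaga
Arhgap18: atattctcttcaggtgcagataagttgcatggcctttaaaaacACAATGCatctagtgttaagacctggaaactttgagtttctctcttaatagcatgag

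The next 3 windows were from W6-only peaks, chosen among the highest of that class by total signal. They had to have a word under the summit and to be on none of the D0, no-DOX and dHMG-SOX9 lists. They lay 2022 bp from *Gnai2* at chr9:107612053-107612152, 2745 bp from *Tprg* at chr16:25425039-25425138 and in an intron of *Mast4* at chr13:102894704-102894803. Their maxima were 4827, 4743 and 4618 RPKM at W6. All of these sites also had a SOX9 peak at W1 and at W2, and none passed the calling limit at W12.
Gnai2: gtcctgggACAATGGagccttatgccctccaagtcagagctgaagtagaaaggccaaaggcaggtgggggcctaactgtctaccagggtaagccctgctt
Tprg: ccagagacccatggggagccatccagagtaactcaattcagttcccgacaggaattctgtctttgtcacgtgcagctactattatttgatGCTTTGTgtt
Mast4: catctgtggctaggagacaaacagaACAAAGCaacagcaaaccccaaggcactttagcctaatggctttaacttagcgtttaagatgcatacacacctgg

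The last 4 windows were from W12-only peaks, chosen by the same rule, with the same lists left out. They lay 412391 bp from *Thrb* at chr14:17247820-17247919, in introns of *Pcdh15* at chr10:74538485-74538584 and *Lin28b* at chr10:45398331-45398430, and in an intron of *Adgra3* at chr5:49967250-49967349. Their maxima at W12 were 3585, 8456, 3401 and 2666 RPKM. None of the 4 had a SOX9 peak at W1, W2 or W6, and of their MLL3/4 lists at D0, W1 and W2 only the W1 list covered any, at *Adgra3*.
Thrb: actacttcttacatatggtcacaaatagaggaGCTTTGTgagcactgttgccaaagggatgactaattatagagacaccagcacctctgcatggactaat
Pcdh15: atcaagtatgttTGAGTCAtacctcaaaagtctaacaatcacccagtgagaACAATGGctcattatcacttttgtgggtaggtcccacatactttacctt
Lin28b: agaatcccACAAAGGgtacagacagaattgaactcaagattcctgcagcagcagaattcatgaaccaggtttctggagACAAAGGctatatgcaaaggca
Adgra3: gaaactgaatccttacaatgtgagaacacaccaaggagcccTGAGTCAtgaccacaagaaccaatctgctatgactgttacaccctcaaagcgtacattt

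Both libraries were of like depth. The pooled RPKM values were whole multiples of 41.98 RPKM at W6 and 45.96 RPKM at W12. If a step stands for a single fragment over a single base, this corresponds to 23.8 M and 21.8 M fragments. The authors kept peaks with a maximum above 1800 RPKM, so on that reading the weakest peak rested on 43 fragments at W6 and 40 at W12. Whether a site without a peak still held signal below that limit was not analysed here. A lower value can come from fewer cells with SOX9 at a site or from less SOX9 per cell. A smaller share of a library's fragments at bound sites would lower it too. These cannot be told apart in a pooled list. The 95% Wilson intervals given with shares cover counting of peaks only, not variation between animals. For a count of 0 the limit given in place of an interval is 3 counts of the total.

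Most of the W12 list lay within the W6 list. Of the W6 peaks, 8165 were shared and 12414 were W6-only, which is 60.3% of the list. The W6 list is over 2 times as long and 8275 of the 8287 shared W12 peaks had 1 partner, so most W6 peaks had to be W6-only whatever the binding. At W12, 8287 peaks were shared and 1458 were W12-only, or 15.0%. Moving the peaks by 10 kb left an overlap of 2.01% for W6 and 4.21% for W12. Counted in bases, 29.5% of the sequence under W6 peaks and 83.1% of that under W12 peaks was common to both. The median width was 599 bp at W6 and 465 bp at W12. The W6 list covered 13.7 Mb and the W12 list 4.94 Mb. When the W6 list was cut to the 9745 highest peaks, the shares in common were 59.1% of W6 and 60.4% of W12 peaks, which list length makes nearly equal by construction.

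Sharing followed the rank of a peak within its own list. Among W6 peaks, 87.9% (95% interval 86.4 to 89.2) of the decile with the highest total signal were shared, against 34.6% in the fifth decile and 14.7% (13.2 to 16.3) in the lowest. At W12 the same shares were 99.1% in the highest decile, 88.9% in the fifth and 59.0% (55.9 to 62.0) in the lowest. The lists thus differed most among weak peaks: 68.8% of W6-only and 81.3% of W12-only peaks had maxima below 2700 RPKM, that is within 1.5 times the calling limit, while 19.2% of shared W6 and 51.2% of shared W12 peaks did. Strong peaks present at 1 time point were nevertheless found. Of 5879 W6 peaks above 3600 RPKM, 1085 were W6-only (18.5%, 17.5 to 19.5), and of 2125 such W12 peaks, 73 were W12-only (3.44%, 2.74 to 4.30).

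**Figure D1:**
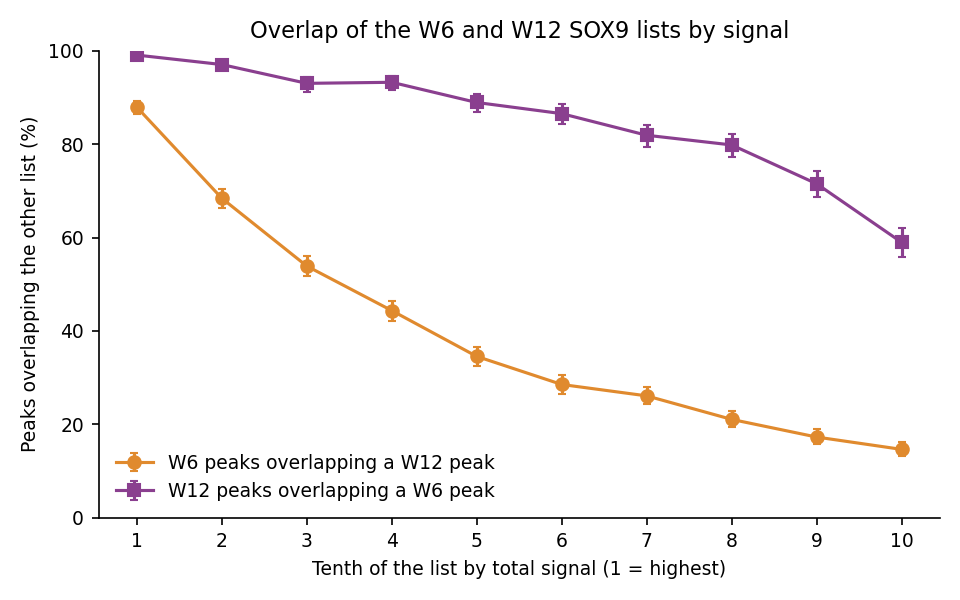
Share of SOX9 peaks that overlapped the other list (y axis, percent), by decile of total signal within the list (x axis, 1 is the highest), for W6 (circles) and W12 (squares). Bars are 95% Wilson intervals over peaks. The W6 share ran from 87.9% to 14.7%, and the W12 share from 99.1% to 59.0%.

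At the 8287 shared sites, the signal was centred on the same bases but was lower and narrower at W12. The maxima of the paired peaks lay a median of 9 bp apart, and 75.6% lay within 50 bp. The median maximum of these pairs was 3988 RPKM at W6 and 2666 RPKM at W12, and the median ratio of W12 to W6 was 0.705, with quartiles of 0.567 and 0.894. The W12 value was the higher in 1311 pairs (15.8%). Width showed the same direction, with a median ratio of 0.774. RPKM is a share of each library's own fragments, and no spike-in scaling is given in the sources used here, so the ratio compares shares and not absolute amounts. Across pairs, total signals at W6 and W12 had a Spearman correlation of 0.674, given as a description because paired sites share base composition and mappability.

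The few highest sites of both lists were mostly not specific to induced SOX9. Among the 10 highest peaks by total signal, 7 at W6 and 9 at W12 overlapped a peak of the D0 list, of the list without DOX or of the list of dHMG-SOX9, a SOX9 without its DNA-binding HMG domain, the last 2 being MYC-tag CNR in cultured keratinocytes. This share was 31% and 29% of the highest 100 peaks, 24.2% and 21.6% of the highest 1000, and 11.8% and 14.8% of the whole lists. At *Gm10800*, chr2:98666236-98667335, the maximum was 62504 RPKM at W6 and 256631 RPKM at W12, and at an intron near *Rpusd4*, chr9:35305211-35305592, it was 22500 and 144171 RPKM. Both sites were on all of the D0, no-DOX and dHMG-SOX9 lists, and their ratios were above the range of most pairs. The same held for the pairs whose rank was most raised at W12, which were 3 neighbouring peaks near *Gm21738* on chromosome 14: the largest, chr14:19417317-19419469, stood at rank 9 at W12 and overlapped a W6 peak at rank 18317. Such sites were few. The 77 pairs on all 3 of these lists had a median ratio of 0.695, near that of all pairs, and 22 (28.6%) were higher at W12, 15 of them over 2 times. The 1329 pairs on any of the lists had a median ratio of 0.630 with 9.03% higher at W12, 19 of them over 2 times. The 6958 pairs on none had 0.720 with 17.1% higher, 26 of them over 2 times.

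The 5 highest W6 sites outside those lists were at ranks 6, 8, 10, 11 and 13. In the shorter W12 list they stood at 10, 2589, 37, 707 and 48, so 2 were no longer among the highest. Because they were chosen by W6 rank, lower ranks at W12 can come from that choice. At the site that moved farthest, in an intron, the maximum was 7766 RPKM at W6 and 2022 RPKM at W12. The *Tle1* peak printed above ranked 6 at W6 and 10 at W12. A peak 42.5 kb from *Tcim* ranked 10 at W6 with 18050 RPKM and 37 at W12 with 8640 RPKM. An intron of *Pkd1l1* ranked 13 with 14566 RPKM and 48 with 6986 RPKM. A wide peak of 3356 bp at the start of another transcript, 34097 bp from *Sgk1*, which encodes a kinase of growth and ion transport, ranked 11 with 5709 RPKM at W6 and 707 with 2482 RPKM and a width of 1100 bp at W12. At a peak 8040 bp from *Igf1r*, the receptor of insulin-like growth factor 1, the maximum was 19687 RPKM at W6 and 13650 RPKM at W12, and the peak stood within the upper 0.141% and 0.154% of the lists. A peak at a promoter within *Gtf2h2* stood within the upper 0.68% at W6 and 0.164% at W12, with maxima of 11586 and 11719 RPKM.

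The highest W6-only peaks were mostly wide rather than tall. An intronic peak of *Nav2*, chr7:49396035-49398581, spanned 2547 bp with a maximum of 6423 RPKM and stood at rank 34 of the W6 list. A peak 4046 bp from *Ankrd12* reached 11208 RPKM at rank 135 but was also on the D0 list. The next were an intronic peak of *Pde4d* 5499 RPKM at rank 177, and, after a *Ctnnbip1* site on the dHMG-SOX9 list at rank 209, a peak 19.1 kb from *Lrig1*, which encodes a negative regulator of the EGF receptor and marks quiescent epidermal stem cells, 3442 RPKM at rank 273. Each of these 4 sites had SOX9 peaks at W1 and W2 and an MLL3/4 peak at D0. The highest W12-only peak, at the *Sfi1* promoter, was on the no-DOX and dHMG-SOX9 lists and on the W1 and W2 lists. A W12-only site 67.8 kb from *Tex36*, at rank 564 with 4642 RPKM, had no SOX9 peak at W1 or W2 and was on the no-DOX list.

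Genomic context differed between the classes. A promoter, here the 1 kb to either side of a GENCODE vM21 transcription start, held 27.2% (26.4 to 27.96) of W6-only peaks and 15.6% (14.8 to 16.4) of the shared W6 peaks. Among W12 peaks the order was opposite, with 10.1% (8.64 to 11.7) of W12-only and 15.0% (14.2 to 15.8) of shared peaks at promoters. The difference was 11.6 percentage points at W6 (10.5 to 12.7) and -4.91 points at W12 (-6.55 to -3.09). With lists of equal size they were 6.72 points and -1.13 points (-2.53 to 0.293), the latter including 0. Among peaks above 3600 RPKM the W12 difference was 1.90 points (-3.97 to 11.45), over 73 W12-only peaks. Introns held 37.4% of W6-only and 45.8% of W12-only peaks, and 7.89% and 15.7% of these classes lay over 50 kb from any start, against 10.9% of shared peaks. The median GC content of the 100 bp under the summit was 48% for W6-only, 45% for shared and 42% for W12-only peaks.

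Seen from the peaks, promoter sites of the W6 list were the less often kept. Of 4645 W6 promoter peaks, 27.4% (26.1 to 28.7) had a W12 peak, and of 15934 others 43.3% (42.5 to 44.0) did. Within each decile of total signal the promoter share was the lower, in 10 of 10 deciles, so the difference was present between peaks of like total signal. Like signal means like total signal here and below. The maximum, to which the calling limit applies, was not matched. With deciles weighted equally it was 32.0% against 42.03%.

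The SOX and AP1 words separated the classes in different ways. A SOX word lay within 50 bp of the maximum in 23.9% (23.0 to 24.9) of shared W6 peaks and 15.1% (14.5 to 15.7) of W6-only peaks, while windows moved by 1 kb held it in 6.39% and 6.31%. For W12 peaks it was 25.5% (24.5 to 26.4) of shared and 19.96% (17.99 to 22.1) of W12-only peaks, with 6.26% and 6.45% in moved windows. The difference of single-list from shared peaks was -8.84 points at W6 and -5.51 points at W12, but -3.57 and -2.56 points for the stricter word, CCATTGT or CCTTTGT followed by T, and -22.0 points at W12 among peaks above 3600 RPKM. AP1 words were likewise rarer in W6-only peaks, at 19.1% (18.5 to 19.8) against 29.8% (28.8 to 30.8) of shared W6 peaks. In W12-only peaks they were the more frequent, at 35.05% (32.6 to 37.5) against 28.7% (27.8 to 29.7) of shared W12 peaks, with about 2% in all moved windows (1.95% to 2.13%). The AP1 difference at W12 was 6.30 points (3.70 to 8.97) over all peaks and 0.188 points (-8.23 to 11.2) among peaks above 3600 RPKM, of which 73 were W12-only. Between W12 peaks of like signal it was small: 82.3% of peaks with and 86.2% of peaks without an AP1 word had a W6 peak, but 84.6% and 85.3% with deciles of signal weighted equally, and the share with the word was the lower in 6 of 10 deciles. Both words together were present in 5.49% of W12-only, 3.92% of shared W6 and 1.78% of W6-only peaks. Neither word was found in 67.5% of W6-only peaks, against 50.2% of shared W6 and 50.5% of W12-only peaks, and no match says only that these letters are not in the window.

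**Figure D2:**
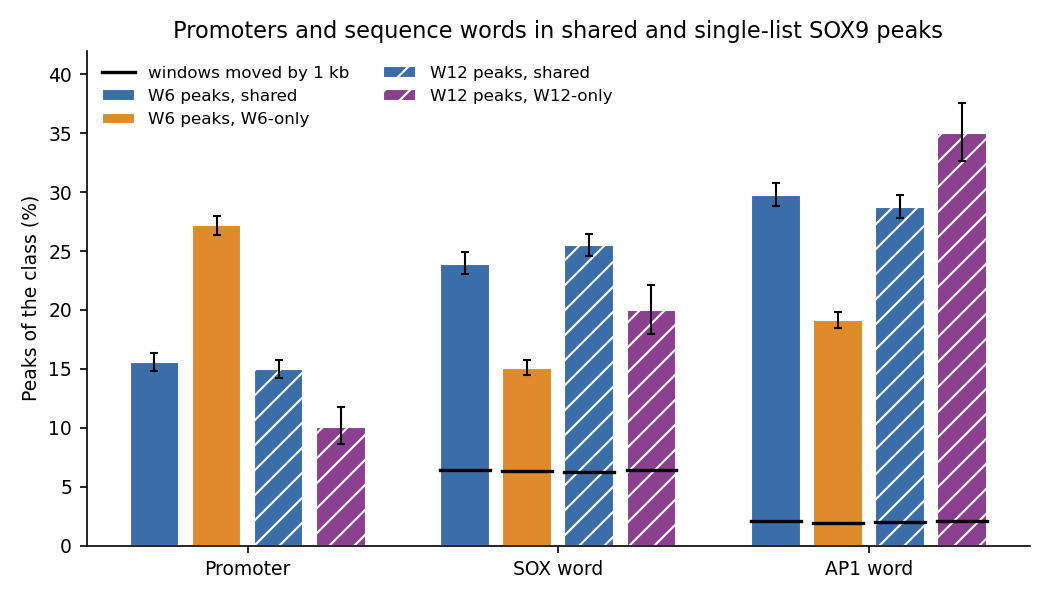
Share of peaks (y axis, percent) at promoters, with a SOX word and with an AP1 word, for shared and W6-only peaks of the W6 list (plain bars) and shared and W12-only peaks of the W12 list (hatched bars). Error bars are 95% Wilson intervals over peaks and black lines the share of windows moved by 1 kb. W6-only peaks were highest at promoters (27.2%) and W12-only peaks highest for the AP1 word (35.05%).

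These differences were also present away from promoters. There, the SOX word was in 24.9% of 6893 shared W6 peaks and 17.0% of 9041 W6-only peaks, and the AP1 word in 31.8% and 22.1%. Between W6 peaks of like signal, those with a SOX word were kept at W12 more often in 10 of 10 deciles (51.0% against 37.1% over all), and so were those with an AP1 word (50.6% against 36.3%). The RUNX word AACCACA was in 3.15% of shared W6, 2.44% of W6-only and 3.77% of W12-only peaks, against 2.30% to 2.43% of moved windows. The TEAD word GGAATG was in 9.05% of W12-only peaks and 7.06% of W6-only peaks, with 5.15% to 5.32% in moved windows. GATA words (AGATAAC or AGATAAG) were in 2.34% of W6-only peaks, close to the 2.43% of their moved windows, and in 1.54% of shared W6 peaks, below the 2.28% of theirs.

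W12-only peaks were mostly absent from the earlier SOX9 lists, which was not the case for W6-only peaks. This contrast is in part set by how the classes were made. W12-only peaks lack a W6 peak by definition, and 98.7% of W12 peaks with a W2 peak had a W6 peak. W6-only peaks were selected against the later W12 list only. The W2 list, with 18657 peaks, covered 71.5% (70.5 to 72.4) of shared W6 peaks, 60.9% (60.1 to 61.8) of W6-only peaks and 5.35% (4.31 to 6.63) of W12-only peaks. Moving the peaks by 10 kb left 4.23%, 4.22% and 1.23%. With W6 cut to the length of the W12 list the gap between W6-only and shared W6 peaks was -1.48 points instead of -10.5. At W1 the same shares were 67.2%, 48.8% and 8.37%. No SOX9 peak at D0, W1 or W2 was found for 24.2% of shared W6, 32.4% of W6-only and 88.7% (87.0 to 90.2) of W12-only peaks. A return, that is a peak at W1 or W2, none at W6 and again a peak at W12, was seen for 143 of the 1458 W12-only peaks (9.81%, 8.39 to 11.4), and their median maximum at W12 was 2068 RPKM.

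A peak at W2 did not mark the W6 sites that were kept once total signal was taken into account. Over all W6 peaks, 43.5% (42.7 to 44.4) of those with a W2 peak and 32.5% (31.4 to 33.5) of those without had a W12 peak. Within each of the 10 deciles of total signal the order was the reverse. In the fifth decile 31.0% of 1464 peaks with and 43.2% of 599 peaks without a W2 peak were shared, and in the lowest 5% of 440 and 17.3% of 1600. Weighted equally over deciles the shares were 35.2% and 46.6%. For a W1 peak the order did not reverse, with 47.5% against 29.6% over all W6 peaks, 39.1% against 38.7% with deciles weighted equally, and a higher share with the peak in 6 of 10 deciles. Peaks with a W2 peak made up 2000 of the 2059 W6 peaks in the highest decile and 440 of the 2040 in the lowest, which is how the 2 summaries come to differ in sign.

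The classes also differed in MLL3/4 occupancy before SOX9 induction. Of W6-only peaks 57.0% (56.1 to 57.9) overlapped a D0 MLL3/4 peak, against 46.4% (45.3 to 47.4) of shared W6 and 13.0% (11.4 to 14.9) of W12-only peaks, with 5.99%, 5.74% and 2.33% after moving by 10 kb. Among peaks above 3600 RPKM the difference of W12-only from shared W12 peaks was -6.62 points (-15.5 to 4.64) instead of -32.6, an interval that includes 0. An MLL3/4 peak at W1 or W2 without one at D0 lay at 26.6% of shared W6 peaks, 18.4% of W6-only peaks and 7.13% of W12-only peaks. An MLL3/4 peak at D0 that was absent at W2 lay at 4.35%, 10.6% and 4.87%. The shares without any MLL3/4 peak at D0, W1 or W2 were 27.1%, 24.6% and 79.8% (77.7 to 81.8), so the W12-only peaks were mostly outside the MLL3/4 lists of the first weeks. MLL3/4 at W6 and W12 was not analysed here. Away from promoters the D0 MLL3/4 share was 42.1% for shared W6, 49.5% for W6-only and 10.8% for W12-only peaks. Between W6 peaks of like signal, those with D0 MLL3/4 were kept less often in 10 of 10 deciles, with 34.9% against 45.1% over all.

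**Figure D3:**
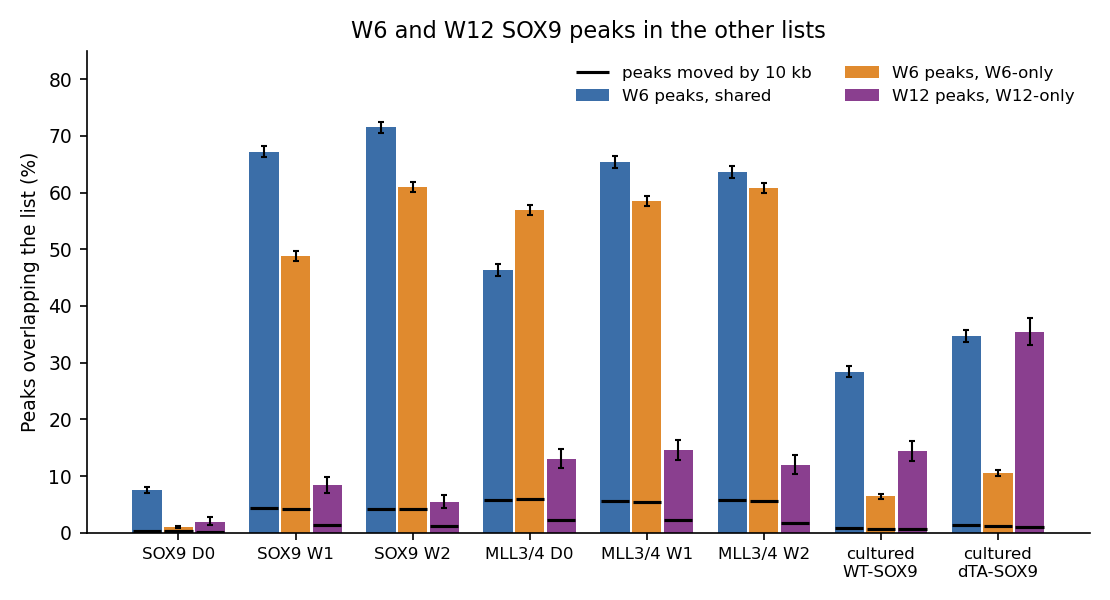
Share of shared W6, W6-only and W12-only SOX9 peaks (y axis, percent) that overlapped the SOX9 and MLL3/4 lists of earlier time points and the MYC-tag lists of cultured keratinocytes with WT-SOX9 or dTA-SOX9. Error bars are 95% Wilson intervals over peaks and black lines the overlap after moving the peaks by 10 kb. W12-only peaks were low in the SOX9 W2 list (5.35%) and reached 35.5% in the dTA-SOX9 list.

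In cultured keratinocytes carrying tagged SOX9 the classes again differed. Peaks of wild-type SOX9 (WT-SOX9, 6671 peaks) covered 28.4% (27.5 to 29.4) of shared W6, 6.404% (5.99 to 6.85) of W6-only and 14.3% (12.6 to 16.2) of W12-only peaks. Peaks of dTA-SOX9 (11341 peaks), which lacks the transactivation domain, covered 34.7%, 10.5% and 35.5% (33.0 to 38.0). After moving by 10 kb at most 1.38% overlapped. W12-only peaks were found 517 times on the dTA-SOX9 list and 209 times on the WT-SOX9 list, which is the shorter list. AP1 words were in 37.1% (33.1 to 41.4) of the W12-only peaks with a dTA-SOX9 peak and 33.9% (30.9 to 37.0) of those without, and SOX words in 14.1% (11.4 to 17.4) and 23.2% (20.6 to 26.0). W6 peaks that overlapped cultured WT-SOX9 peaks were kept at W12 in 74.5% (72.9 to 76.0), against 33.5% for the rest, and the share was the higher in 10 of 10 deciles.

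Assigned to the nearest protein-coding gene, W6 peaks belonged to 7349 genes and W12 peaks to 4754, of which 4347 were common. Thus 3002 genes, or 40.8% of the W6 genes, had a W6 peak and no W12 peak, and 407 genes, or 8.56% of the W12 genes, had the opposite. Among the 119 genes with at least 15 W6 peaks a median of 40% of the W6 peaks was shared. The nearest gene is not necessarily the gene a site acts on, and peaks near the same gene are not independent.

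By nearest gene, genes that specify the epidermis had the largest share of W6-only peaks among the 18 gene lists examined. Of the 177 W6 peaks nearest to these factors 122 were W6-only (68.9%, 61.8 to 75.3), against 60.3% of all W6 peaks. Without *Gata3* it was 95 of 141 (67.4%, 59.3 to 74.6), an interval that holds the share of all peaks. With gene bodies and 50 kb to each side in place of the nearest gene it was 66.4% (57.1 to 74.5), which also holds it, and 5 other lists were higher. *Gata3*, a zinc-finger factor of epidermal fate and barrier formation, had 36 W6 peaks, of which 27 were W6-only, the most of any gene. These 27 lay 10.4 to 753 kb downstream of its start, most of them past the end of the gene and some within other transcripts. The 9 shared sites had maxima of 3148 to 8144 RPKM at W6 and 2022 to 6756 RPKM at W12, and the W6-only sites 1805 to 4030 RPKM, so the kept sites were mostly the higher ones. At the highest, 54.7 kb downstream of the *Gata3* start, the values were 8144 RPKM at W6 and 6756 RPKM at W12. *Trp63*, which encodes the master factor p63 of stratified epithelia, and *Ehf*, an ETS factor of differentiation, each had 11 W6-only peaks of 18. *Grhl2* had 9 of 11 and *Klf4* 6 of 8, with 2 of 4 W12 peaks of *Klf4* being W12-only. *Klf5*, a factor of basal progenitors, had 11 of 17 W6 peaks shared, and all 11 *Klf5* peaks at W12 were also present at W6, the highest with 8899 RPKM at W6 and 2987 RPKM at W12.

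The RUNX genes had a low share of W6-only peaks. *Runx1*, *Runx2*, *Runx3* and *Cbfb*, their shared partner subunit, had 21 W6-only of 50 W6 peaks (42%, 29.4 to 55.8), and 1 of their 30 W12 peaks was W12-only (3.33%, 0.591 to 16.7), an interval that includes the 15.0% of all W12 peaks. Without *Runx1* it was 5 of 15 (33.3%, 15.2 to 58.3), and with gene bodies and 50 kb to each side 33.3% of 30 peaks (19.2 to 51.2). *Runx1*, a factor of hair follicle stem cell activation and of skin tumours, kept 19 of 35 W6 sites. The shared *Runx1* sites had a median maximum of 7010 RPKM at W6 and 3723 RPKM at W12, against 2393 RPKM for its W6-only sites. At its highest site, chr16:92998549-92999143, the maximum was 14650 RPKM at W6 and 9238 RPKM at W12. *Runx2* kept 7 of 10 sites, and its highest maximum was nearly the same at both time points, 16539 and 16315 RPKM. Keratins of wounds and tumours had 5 W6-only of 12 peaks (41.7%, 19.3 to 68.0), but 62.2% of 37 with gene bodies and 50 kb to each side, with *Krt6a* at 6842 RPKM at W6 and 4734 RPKM at W12. None of their 7 W12 peaks was W12-only, which allows a share of up to 42.9% (3 of 7).

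**Figure D4:**
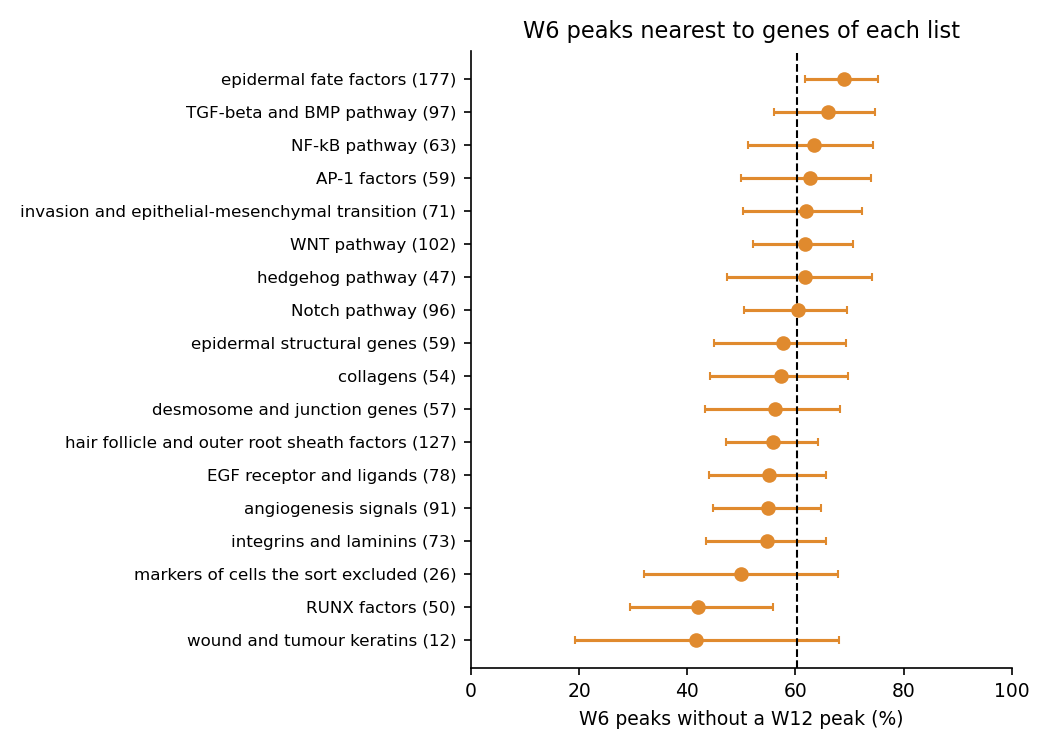
Share of W6 peaks without a W12 peak (x axis, percent) among the W6 peaks nearest to the genes of each of 18 lists, with the number of W6 peaks in parentheses. Bars are 95% Wilson intervals over peaks and the dashed line is the share of all W6 peaks, 60.3%. The intervals of epidermal fate factors (68.9%) and RUNX factors (42%) did not include the line.

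Hair follicle and outer root sheath factors had 71 W6-only of 127 W6 peaks (55.9%, 47.2 to 64.2), an interval that included the share of all peaks. Of their 60 W12 peaks 4 were W12-only (6.67%, 2.62 to 15.9), an interval that included the 15.0% of all W12 peaks. *Nfib*, a regulator of follicle stem cells, had 26 W6 peaks with 12 shared, and reached 13223 RPKM at W6 and 9789 RPKM at W12. *Tcf7l2*, a WNT effector, kept 6 of 12 sites and had highest maxima of 16203 and 12409 RPKM. The *Sox9* gene itself lies in a gene-poor region and was nearest to 19 W6 peaks, the nearest of them 116 kb from its start. Of these, 5 were shared, from -716 to -120 kb upstream, and the farthest had the highest maximum, 8605 RPKM at W6 and 5561 RPKM at W12. The 14 other *Sox9* peaks, with a median maximum of 2120 RPKM, were absent at W12.

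The hedgehog pathway drives BCC. Its 13 genes had 29 W6-only of 47 W6 peaks (61.7%, 47.4 to 74.2), and 4 of 22 W12 peaks were W12-only (18.2%, 7.31 to 38.5; 1 of 18 without *Gli3*), near the 15.0% of all W12 peaks. The coreceptors differed from each other. *Gas1* had 18 W6 peaks with 6 shared and reached 15783 RPKM at W6 and 11030 RPKM at W12. *Boc* had 9 W6 peaks of 1805 to 3148 RPKM, spread over an intronic and upstream stretch, and no W12 peak. The effector *Gli3* held different sites at the time points. It had 3 W6-only peaks, 1 shared peak of 3358 RPKM at W6 and 2114 RPKM at W12, and 3 W12-only peaks of 3079, 2849 and 1884 RPKM. These W12-only *Gli3* sites lay 229 to 400 kb downstream of its start, in introns of annotated transcripts and 2 of them past the end of *Gli3*, while its W6-only sites lay at -279 to 5.31 kb.

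Genes of invasion and epithelial-mesenchymal transition had 10 W12-only of 38 W12 peaks (26.3%, 15.0 to 42.01), beside 15.0% of all W12 peaks. Without *Zeb2* it was 6 of 28 (21.4%, 10.2 to 39.5). They had 44 W6-only of 71 W6 peaks (62.0%, 50.3 to 72.4), near the 60.3% of all W6 peaks. *Zeb2*, a repressor of epithelial genes, had 4 of the 10, all in the desert upstream of the gene at -1374 to -1082 kb, with maxima of 2114 to 3952 RPKM. At its farthest shared site, -1535 kb from the start, the maximum was 4911 RPKM at W6 and 6480 RPKM at W12, which is among the minority higher at W12. *Tnc*, which encodes the matrix protein tenascin C, had 2 W12-only of 7 W12 peaks and reached 10746 and 9467 RPKM. *Twist1* and *Mmp13* had 1 W12 peak each, of 2068 and 2666 RPKM, and no W6 peak. *Cd44*, by contrast, had 12 W6-only of 19 W6 peaks and no W12-only peak among 7. The TGF-beta and BMP pathway had 9 W12-only of 42 W12 peaks (21.4%, 11.7 to 35.9), or 7 of 39 (17.9%, 8.98 to 32.7) without *Smad2*. It had 64 W6-only of 97 W6 peaks (66.0%, 56.1 to 74.6). These intervals included the 15.0% of all W12 and the 60.3% of all W6 peaks. *Tgfbr3*, a coreceptor, had 11 W6-only of 13 W6 peaks, and its highest shared site had 14230 RPKM at W6 and 8364 RPKM at W12. *Tgfbr2*, the type 2 receptor, kept 7 of 14 sites, with a highest maximum of 10704 and 7721 RPKM.

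For adhesion and matrix genes the intervals included the share of all W6 peaks. Integrins and laminins had 40 W6-only of 73 W6 peaks (54.8%, 43.4 to 65.7), collagens 31 of 54 (57.4%) and desmosome and junction genes 32 of 57 (56.1%). W12-only peaks were 2 of 38 (5.26%, 1.46 to 17.3), 4 of 27 (14.8%) and 3 of 29 (10.3%), beside 15.0% of all W12 peaks. Single genes of these lists differed among themselves. *Col17a1*, a hemidesmosome collagen, had 3 of 9 W6 peaks shared and was higher at W12 in its highest maximum, 8043 against 6926 RPKM. *Dsc3*, a desmosomal cadherin, kept 7 of 8 sites. *Col4a3* had 1 W12 peak, of 3677 RPKM, and no W6 peak.

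For the lists not yet named the interval included the share of all W6 peaks. W6-only peaks were 58 of 96 for the Notch pathway, 63 of 102 for WNT, 43 of 78 for the EGF receptor and its ligands, 50 of 91 for angiogenesis signals and 40 of 63 for the NF-kB pathway. AP-1 factor genes had 37 of 59 and epidermal structural genes 34 of 59. *Jag1*, a Notch ligand, kept 12 of 20 sites, and the WNT corepressor gene *Tle3* kept 3 of 16. *Fos* kept 1 of 7 and *Jun* 6 of 11. W12-only peaks were 1 of 39 for Notch, 2 of 44 for WNT, 3 of 38 for EGF, 5 of 47 for angiogenesis and 0 of 23 for NF-kB, beside 15.0% of all W12 peaks. The interval of Notch (2.56%, 0.454 to 13.2) lay below that share, on 1 peak, and the count of 0 for NF-kB allows up to 13.0% (3 of 23). Genes that mark the endothelial, immune, melanocyte and mesenchymal cells excluded by the sort had 13 W6-only of 26 W6 peaks and 4 W12-only of 17 W12 peaks, among them *Kdr*, which had a W12 peak of 2987 RPKM and no W6 peak. A peak list gives no expression, so the purity of the sort could not be read from it.

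The genes nearest to most W6-only peaks after *Gata3* were *Myc* (24 of 45 W6 peaks), *Fgfr2* (23 of 29), *Rad51b* (21 of 38) and *Klf6* (19 of 41). *Myc* lies in a wide desert, and its peaks spanned from -503 to 809 kb of the start. *Fgfr2*, a receptor of epithelial growth factors, is annotated over 2961 kb in GENCODE vM21. The genes nearest to most W12-only peaks were *Gsdmc* (5 of 7 W12 peaks), *Nrxn3* (5 of 7), *Cubn* (5 of 6), *Robo2* (4 of 14) and *Zeb2* (4 of 10). The 5 *Gsdmc* peaks lay 346 to 907 kb downstream of its start, with maxima of 1838 to 2390 RPKM, and 4 of them had an AP1 word. Those of *Nrxn3*, a synaptic gene of 1612 kb, reached 4274 RPKM. The 5 *Cubn* peaks were within the gene and at its start, at 1884 to 2482 RPKM, close to the calling limit.

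**Figure D5:**
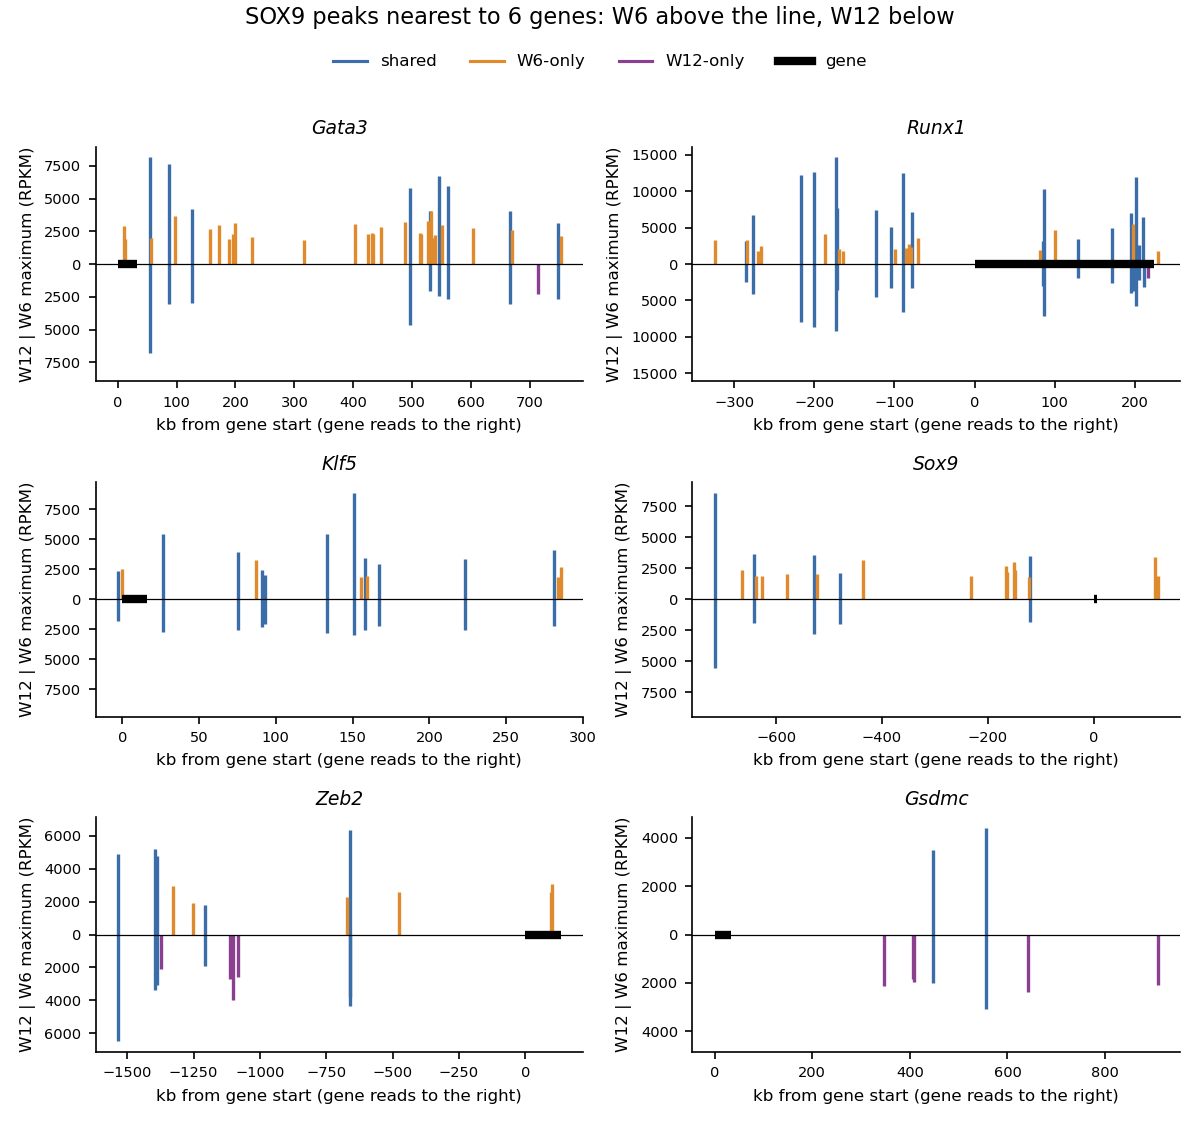
Maximum signal (y axis, RPKM) of every SOX9 peak nearest to 6 genes, W6 above and W12 below the line, against distance from the gene start in kb (x axis), for shared, W6-only and W12-only peaks. The black bar is the gene. At *Gata3* 27 of 36 and at *Sox9* 14 of 19 W6 peaks had no W12 peak, while *Zeb2* and *Gsdmc* had 4 and 5 W12-only peaks. The 6 genes were chosen after their values were seen.

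Among genes with at least 15 W6 peaks, and chosen after their values were seen, *Adgrl3* had the largest share of sites kept, 13 of 16. *Btbd3* followed with 17 of 25, *Moxd1* with 10 of 15 and *Sox5*, another SOX gene, and *Klf5* with 11 of 17 each. Among the smallest shares were those of *Ly86* with 2 of 17 and *Galnt18* with 3 of 17. *Adgrl3* reached 12257 RPKM at W6 and 6664 RPKM at W12 and *Galnt18* 6087 and 3631 RPKM, so a gene that lost most of its sites from the list could still hold a strong shared site.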

How the data were processed

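SOX9 CNR peaks at W6 and W12 were examined, with 2 samples pooled by the authors in each list. After trimming by Skewer, the authors mapped reads on mm10 using Bowtie2 2.2.9, removed duplicates with Picard, used SAMtools 1.3.1, kept fragments of at most 120 bp, made tracks with deepTools 3.1.2 and called peaks with SEACR in stringent mode at 0.01. The deposited lists give the maximum in RPKM, kept above 1800 by the authors, and a score, the total signal. In the deposited MLL3/4 lists the maximum is unscaled coverage. Only overlaps with these and the other lists were used, 12 of the 18 in all.

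Shares, words and contexts were computed with Python 3.11.15, numpy 2.4.6, pandas 2.3.3 and scipy 1.17.1 and plotted with matplotlib 3.10.9. Genes came from GENCODE vM21, of the same build as the peaks. Depth was read from the step of the RPKM values, taken as a single fragment over a single base. Of the values 100% were whole multiples (within 0.05 fragments), which gave at least 40 fragments for each maximum. Groups came from the sample labels. Each group had 1 list, so shares have 95% Wilson intervals and differences of shares Newcombe intervals, without a test. Ranks were taken within a list by total signal. Named genes were, per gene list, up to 4 with most peaks and those with a W12-only peak, then the 5 nearest to most W6-only and to most W12-only peaks, and named sites were the highest of each class and those whose rank moved most; not all are printed. The gene lists and comparisons were chosen with earlier results of these data known. The routines were tested on simulated data. Alternatives were other overlaps, list sizes, signal limits, merging, autosomes, removal of control sites, words, windows, promoters and gene assignment. Some sites and genes that these rules name are not reported here.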

Additional observations from a re-analysis of the deposited data

How the results depend on the processing

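No paired analysis was possible because the replicates numbered in the labels were pooled into 1 list per time point, and leaving out a replicate could not be run for the same reason. Of the planned and added alternatives, 65 values stayed within the interval of the reported value, 37 moved outside it and 2 reversed in sign. Of the 65 values that stayed, 48 were shares of gene lists. They include the 18 gene lists with gene bodies and 50 kb to each side in place of the nearest gene. The order of the lists then differed, and the share of the epidermal fate factors was no longer apart from all peaks.

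The share of W6 peaks with a W12 peak was 59.1% and that of W12 peaks with a W6 peak 60.4% with lists of equal size, 31.1% and 86.6% with the limit of 3600 RPKM applied to both lists, 38.8% and 86.3% with a common lower limit on total signal, and 38.7% and 83.9% without peaks on the no-DOX or dHMG-SOX9 lists. Merging peaks within 500 bp gave 40.9% for W6. The cause of these shifts was not tested.

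Differences between classes, single-list minus shared, in percentage points, kept their sign except where stated. With lists of equal size they were 6.72 (W6) and -1.13 (W12, -2.53 to 0.293) for promoters, -10.5 (W6) for the SOX word, 9.30 (W12) for the AP1 word, -1.48 (W6) and -60.1 (W12) for a W2 SOX9 peak, and 16.2 (W6) and -25.0 (W12) for D0 MLL3/4. Among peaks above 3600 RPKM, with classes from the whole lists, they were 6.74 for promoters at W6 and 1.90 at W12, which reversed the sign over 73 W12-only peaks; -7.40 and -22.0 for the SOX word, -7.24 and 0.188 for the AP1 word, -0.815 and -79.9 for W2 SOX9, and -6.62 (W12, -15.5 to 4.64) for D0 MLL3/4. The stricter SOX word, CCATTGT or CCTTTGT followed by T, gave -3.57 (W6) and -2.56 (W12), and windows reaching 100 bp to each side -10.8 (W6) for SOX and -14.6 (W6) for AP1.

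Weighting deciles of total signal equally, an alternative chosen after the data were seen, gave differences in the share of W6 peaks kept of -10.0 points for promoters, 9.22 for the SOX word and -15.5 for D0 MLL3/4. For a W2 SOX9 peak it reversed the difference from 11.1 to -11.4 points, and for the AP1 word in W12 peaks the difference in the share with a W6 peak was -0.778 points instead of -3.84. Leaving out the gene with most W12-only peaks, also chosen after the data were seen, gave W12-only shares of 5.56% for the hedgehog pathway and 0 of 10, 0 of 20 and 0 of 32 peaks for RUNX, epidermal structural and Notch genes, which allows up to 30.0%, 15.0% and 9.38%. The calling limit of 40 to 43 fragments bounds what can be called absent, since most single-list peaks lay within 1.5 times of it.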

Other observations

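W6-only peaks often had a W12 peak in the neighbourhood. The median distance to the nearest W12 peak was 27.3 kb, and 29.6% of W6-only peaks had one within 10 kb. For W12-only peaks the nearest W6 peak was a median of 41.2 kb away, and 25.8% had one within 10 kb.

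The NF-kB word was found in 2.01% of W6-only peaks and 0.892% of W12-only peaks, with 1.06% and 0.857% in windows moved by 1 kb. The TP63 word was in 6 of 12414 W6-only peaks and the CTCF word in 30 (0.242%, beside 0.254% in moved windows). Neither was in any of the 1458 W12-only peaks, which allows a share of up to 0.206% (3 of 1458).

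By chromosome, the share of W6 peaks kept ran from 33.2% (27.4 to 39.5) on the X chromosome and 34.2% (31.7 to 36.8) on chromosome 11 to 43.9% (41.1 to 46.7) on chromosome 10.

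Seen from the W12 list, promoter peaks were the more often shared with W6 (89.4% against 84.3% for other peaks), and nearly all W12 peaks with a W2 SOX9 peak had a W6 peak (98.7%, 98.4 to 99.0), against 63.3% of those without. At W12-only promoters, 33.3% of 147 peaks had a D0 MLL3/4 peak, and away from promoters 10.8% of 1311 did.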
